A study of Homo sapiens with 12 samples.

Results

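LACTB and 9 protein-coding genes around it on 15q22 (TLN2, TPM1, RPS27L, RAB8B, APH1B, CA12, USP3, FBXL22 and HERC1) were followed through 12 bulk RNA-seq libraries of iMGLs, 10 of the 62703 genes counted. They were taken from the count table by gene name, for their place next to LACTB, with earlier results of these data known. iMGLs are microglia-like cells differentiated from induced pluripotent stem cells, here of WTC11, an established human line. In the LACTB KO groups the line had been cut in LACTB with CRISPR and repaired by end joining, and the WT groups came from isogenic control clones. Clones J, K and L were WT and clones A, B and C were LACTB KO. All 6 were differentiated 2 times, and a library is named below by its clone and differentiation (J1, B2). Each line was 1 clone, so that a genotype was sampled in 3 independent clones. By the study's methods, sequencing of both alleles was used to check the KO clones for indels that give frameshifts or premature stop codons. All groups grew without further treatment in medium with IL34, TGFb and MCSF, to which CX3CL1 and CD200 were added for the last days.

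LACTB is a mitochondrial serine protease related to bacterial beta-lactamases, known to form filaments in the space between the mitochondrial membranes. Frameshifts and premature stop codons alter the protein, and the level of the transcript need not follow that of the protein. End joining changes a few bases at the cut, and a local change in RNA of adjacent genes can be looked for directly in libraries of edited cells. The neighbors have unrelated functions. TLN2 links integrins to actin, TPM1 encodes a tropomyosin that coats actin filaments, and RPS27L is a ribosomal protein S27 paralog and a p53 target. RAB8B is a small GTPase of vesicle transport, APH1B a subunit of gamma-secretase and CA12 a membrane carbonic anhydrase. USP3 removes ubiquitin from histones, FBXL22 is an F-box protein of striated muscle and HERC1 is a very large ubiquitin ligase.

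In GENCODE version 44 on GRCh38, LACTB (ENSG00000103642.12) lies on chromosome 15 from 63121833 to 63142061 on the plus strand. RPS27L, annotated from 63125872 to 63158021 on the minus strand, covers most of LACTB, but the exons of the genes do not overlap. Relative to the LACTB start, TPM1 ends at −49.9 kb and TLN2 at −277.2 kb. On the other side RAB8B begins 47.5 kb after LACTB, followed by APH1B at 134.0 kb, CA12 at 179.3 kb, USP3 at 362.4 kb, FBXL22 at 455.3 kb and HERC1 at 466.6 kb. Exons of TLN2, TPM1, USP3, FBXL22 and HERC1 overlap exons of antisense long noncoding RNAs. The library kit does not keep the strand, so reads in those overlaps cannot be assigned to one strand.

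The promoter windows of LACTB and of the genes nearest to it on either side of its start, TPM1 and RPS27L, are printed to show what lies around the edited locus. They are RefSeq sequences on GRCh38.p14, 300 bases each in the gene's own direction, with 250 bases before the start site and 50 after it. The LACTB window is chr15:63121611-63121910 on the plus strand, the TPM1 window chr15:63048239-63048538 on the plus strand and the RPS27L window chr15:63157428-63157727 on the minus strand. Capitals mark every match on either strand to the motifs searched.
LACTB: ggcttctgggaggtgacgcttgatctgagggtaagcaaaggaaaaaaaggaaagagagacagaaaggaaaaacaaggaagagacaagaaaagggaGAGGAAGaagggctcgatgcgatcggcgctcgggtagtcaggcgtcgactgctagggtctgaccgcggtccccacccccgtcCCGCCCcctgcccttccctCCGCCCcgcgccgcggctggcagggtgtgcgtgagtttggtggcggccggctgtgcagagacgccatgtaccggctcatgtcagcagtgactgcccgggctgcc
TPM1: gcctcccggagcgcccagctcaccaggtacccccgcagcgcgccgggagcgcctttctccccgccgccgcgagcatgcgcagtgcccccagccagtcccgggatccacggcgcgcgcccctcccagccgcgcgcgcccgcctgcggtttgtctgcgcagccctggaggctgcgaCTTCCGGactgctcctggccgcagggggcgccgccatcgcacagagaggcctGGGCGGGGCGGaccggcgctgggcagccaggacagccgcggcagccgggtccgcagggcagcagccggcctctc
RPS27L: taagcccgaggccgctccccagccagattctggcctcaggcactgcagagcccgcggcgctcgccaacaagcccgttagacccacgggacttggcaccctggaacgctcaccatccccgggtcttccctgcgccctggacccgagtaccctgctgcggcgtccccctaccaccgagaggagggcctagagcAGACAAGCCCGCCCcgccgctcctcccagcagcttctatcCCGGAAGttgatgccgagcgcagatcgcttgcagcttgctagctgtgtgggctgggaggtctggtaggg

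Each motif was searched on both strands. The GC box was searched as GGGCGG, the core bound by ETS factors as CCGGAAG, the core bound by PU.1 as GAGGAAG and the CCAAT box by the letters of its name. The TATA box was searched as TATAAA. The ISRE core, the CArG box and the p53 decamer, of which 2 copies make a full site, are given by name. The LACTB window held a PU.1 core at base 96, counted from the window's 5′ end, and GC boxes at bases 178 and 197. PU.1 is a transcription factor of the myeloid lineage, and the same 7 letters stood in 13.4% of 27305 RefSeq promoters. The TPM1 window held 2 overlapping GC boxes, at bases 227 and 232, and an ETS core at base 175. The RPS27L window held a p53 decamer at base 192 that overlapped a GC box at base 200, and an ETS core at base 232. GC boxes were present in 44.6% of all promoters, ETS cores in 10.7% and p53 decamers in 6.54%. RefSeq windows were found for 9 of the 10 genes (not APH1B). Among them HERC1 also held a PU.1 core, and FBXL22 had the CArG box, which was found in 1.28% of promoters. LACTB and RPS27L held 23 and 22 CG dinucleotides in their windows and TPM1 held 39, against a median of 14 over all promoters.

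Libraries summed to between 24153233 and 28406943 estimated counts. CPM are counts scaled to the library total after TMM scaling, and log2 fold changes are LACTB KO over WT. Of the 10 genes, 9 passed the filter on low counts. CA12 did not, with 0 to 5 counts in WT libraries and 0 or 1 in LACTB KO libraries, so its level was at or near the floor of 3 counts and was not compared. All 13 microglial markers passed, SPI1, CSF1R and P2RY12 among them, and their summed level was between 7430 and 9172 CPM in WT libraries and between 7262 and 7968 CPM in LACTB KO. Stromal genes stood apart, since the summed level of the 16 listed ran from 22.1 to 2560 CPM in WT libraries and from 18.0 to 450 CPM in LACTB KO. Of these 14 passed the filter, each with a negative log2 fold change, 9 of them with an unadjusted p under 0.05 and 0 with an adjusted p under 0.05. Over all 17577 genes tested, 8487 had a negative log2 fold change and 6.36% an unadjusted p under 0.05. Of the 1118 genes in that share, only 141 were higher in LACTB KO. The marker genes DPPA4 (pluripotent cells), PF4 (megakaryocyte) and CLC (granulocyte) were at 0 counts in every library.

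To compare levels between genes, CPM were divided by the merged length of all annotated exons of a gene (RPKM). That length was 3939 bases for LACTB, 5103 for RAB8B, 8825 for RPS27L and 14700 for TPM1. Single transcripts can be shorter, so the order below holds for this measure only. In the 6 WT libraries LACTB was at 20.3 ± 2.39 RPKM (SD, n = 6 libraries of 3 clones) and RAB8B at 20.3 ± 1.43 RPKM. By this measure they were the highest of the neighborhood and could not be ordered. HERC1 followed at 12.6 ± 1.99 RPKM, and its range did not overlap theirs. USP3 (5.47 RPKM), RPS27L (5.37 RPKM), APH1B (5.30 RPKM) and TPM1 (4.49 RPKM) had overlapping ranges. TLN2 was at 0.393 ± 0.0563 RPKM, and FBXL22 at 0.0439 RPKM, with 1 to 9 counts a library. The related genes outside the locus showed which members were the minor copy in these cells. Levels of TLN1 (105 RPKM), TPM3 (42.6 RPKM) and TPM4 (34.4 RPKM) exceeded those of TLN2 and TPM1 in WT, and APH1A was at 76.0 RPKM.

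The edited gene itself showed which clones had lost its transcript. LACTB was at 70.9 and 80.5 CPM in the libraries of WT clone J, 78.8 and 98.1 CPM in K, and 76.6 and 75.5 CPM in L. It was at 9.78 and 9.52 CPM in LACTB KO clone A and at 7.96 and 7.51 CPM in clone C. Clone B held 44.3 and 51.7 CPM. No LACTB KO library reached the lowest WT library, but clone B stood between the other KO clones and WT in both differentiations. As a share of the WT mean the clones kept 12.05% (A), 59.9% (B) and 9.66% (C) of the transcript. Even the lowest library still held 201 counts of LACTB, well above the floor.

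**Figure D1:**
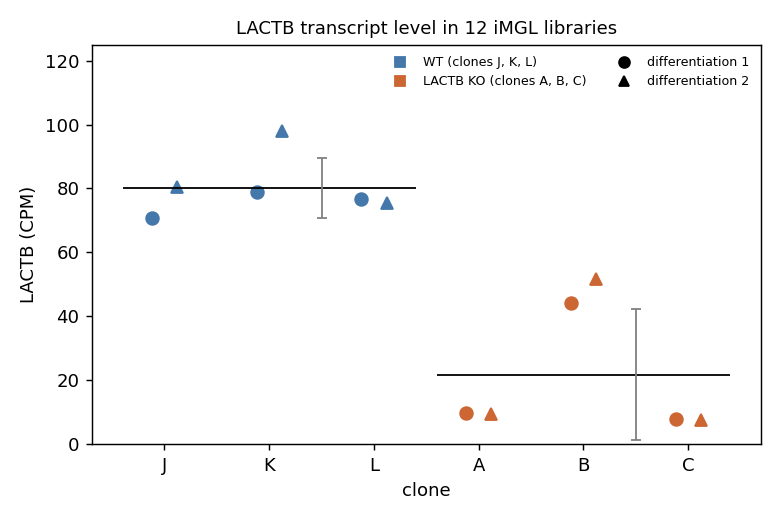
LACTB level in CPM (y axis) for each of the 12 libraries, by clone (x axis). Circles are differentiation 1 and triangles differentiation 2, lines are the mean of the 6 libraries of a genotype and grey bars are 1 SD. Clones A and C lie below 10 CPM, clone B at 44.3 and 51.7 CPM, and the WT libraries between 70.9 and 98.1 CPM.

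Over all clones the log2 fold change of LACTB was −1.87 (SE 0.675, 95% interval −3.48 to −0.27), with an adjusted p of 0.735 in edgeR's quasi-likelihood test on 3 against 3 clone sums. An exact two-sided permutation test over the clones gave p = 0.1, the smallest that 3 against 3 allow (0.5 adjusted over the 10 genes). No gene passed an adjusted p of 0.05 in that comparison (0% of 17577), whereas 6.36% had an unadjusted p under 0.05. DESeq2 called 171 genes there and limma voom 0. Of the 9 genes of the locus tested, 0 had an adjusted p under 0.05 in edgeR, DESeq2 or limma voom, and 2 (LACTB and TPM1) had an unadjusted p under 0.05 in edgeR and in DESeq2. Only LACTB did in limma voom. Without clone B the log2 fold change of LACTB was −3.20 and its adjusted p 0.0151, the one setting in which it passed.

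Compared clone by clone with the 3 WT clones, in a fit to the 12 libraries with clone and differentiation as terms, LACTB fell in clones A and C. These p-values measure the spread between the 2 differentiations of a clone, not between clones. In clone A the log2 fold change was −3.05 (SE 0.119, adjusted p = 9.43e-05) and in clone C −3.36 (SE 0.122, adjusted p = 5.11e-05), by edgeR. In both it had the smallest p of all genes. Few genes passed in these contrasts, 0.0284% of those tested for clone A and 0.0228% for clone C, and LACTB was the only one of the locus. In clone B LACTB was at −0.74 (SE 0.101, adjusted p = 0.107). It ranked 13 of all genes by p, in a contrast with 0.0398% of genes called and 4.12% at an unadjusted p under 0.05. There LACTB was the 1 of 9 locus genes with an unadjusted p under 0.05, and when no expression filter was applied it passed (−0.73, adjusted p = 0.0371).

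The difference between KO clones was itself tested. LACTB was 2.31 log2 units higher in clone B than in clone A (SE 0.126, adjusted p = 0.00127) and 2.63 higher than in clone C (SE 0.128, adjusted p = 0.000545), first by p in both. Of all genes 0.0455% passed between B and A and 0.0171% between B and C. Clones C and A differed by −0.32 (SE 0.126, adjusted p = 1), with 0.0114% of genes called. The 95% interval ran from −0.61 to −0.03, and LACTB ranked 263 by p there (unadjusted p = 0.0355 by edgeR). Over the 3 KO clones together LACTB had the smallest p of all genes (adjusted p = 0.000478), and 0.0341% of genes were called. None of the 8 neighbors passed there. Among the 3 WT clones 0 of the 9 genes passed, by adjusted or unadjusted p, against 0.0683% and 12.9% of all genes, and LACTB had an adjusted p of 0.561.

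None of the 8 neighbors tested had an adjusted p under 0.05, in a comparison where no gene did, LACTB included. The interval of TPM1, described below, did not hold 0 (−3.15 to −0.68). For 6 of the neighbors, all but TPM1 and FBXL22, the SE of the log2 fold change lay between 0.0691 and 0.189. RPS27L, which spans LACTB on the opposite strand, was at 30.8, 49.9 and 56.7 CPM in WT libraries and at 29.5, 46.3 and 52.8 CPM in LACTB KO (lowest, median and highest of 6 libraries). The ranges overlapped almost fully, and the log2 fold change was −0.10 (SE 0.119, adjusted p = 0.899). It was −0.22 without clone L, where the unadjusted p was under 0.05 (adjusted p = 0.453), and −0.02, −0.06 and −0.05 without clones J, K and C. RAB8B, the next gene downstream, ran from 93.8 to 112 CPM in WT (median 104 CPM) and from 97.6 to 115 CPM in LACTB KO (median 105 CPM). With a log2 fold change of 0.03 and an SE of 0.0691 it was the most precisely measured neighbor.

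APH1B was at 25.9, 29.3 and 30.9 CPM in WT libraries and at 20.3, 26.5 and 31.8 CPM in LACTB KO. Its level was lower than the WT mean in 5 of 6 KO libraries, but the groups overlapped and the log2 fold change of −0.13 (SE 0.0815) had an adjusted p of 0.878. USP3 ranged from 34.8 to 46.1 CPM in WT libraries and from 37.9 to 50.7 CPM in LACTB KO, at a log2 fold change of 0.08 (SE 0.0776). HERC1, with the greatest merged exon length of the group, ran from 183 to 273 CPM in WT libraries and from 117 to 269 CPM in LACTB KO, at −0.06 (SE 0.103). The lowest HERC1 value belonged to B1, and the other KO libraries lay at 173 CPM or above. TLN2 ran from 4.76 to 7.10 CPM and from 5.18 to 8.74 CPM (0.04, SE 0.189). The highest TLN2 values were those of both clone A libraries, and clone B was 0.61 log2 units below clone A (SE 0.239, adjusted p above 0.99). The 95% interval of that difference ran from −1.16 to −0.06, and TLN2 ranked 192 by p there (unadjusted p = 0.0347 by edgeR).

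**Figure D2:**
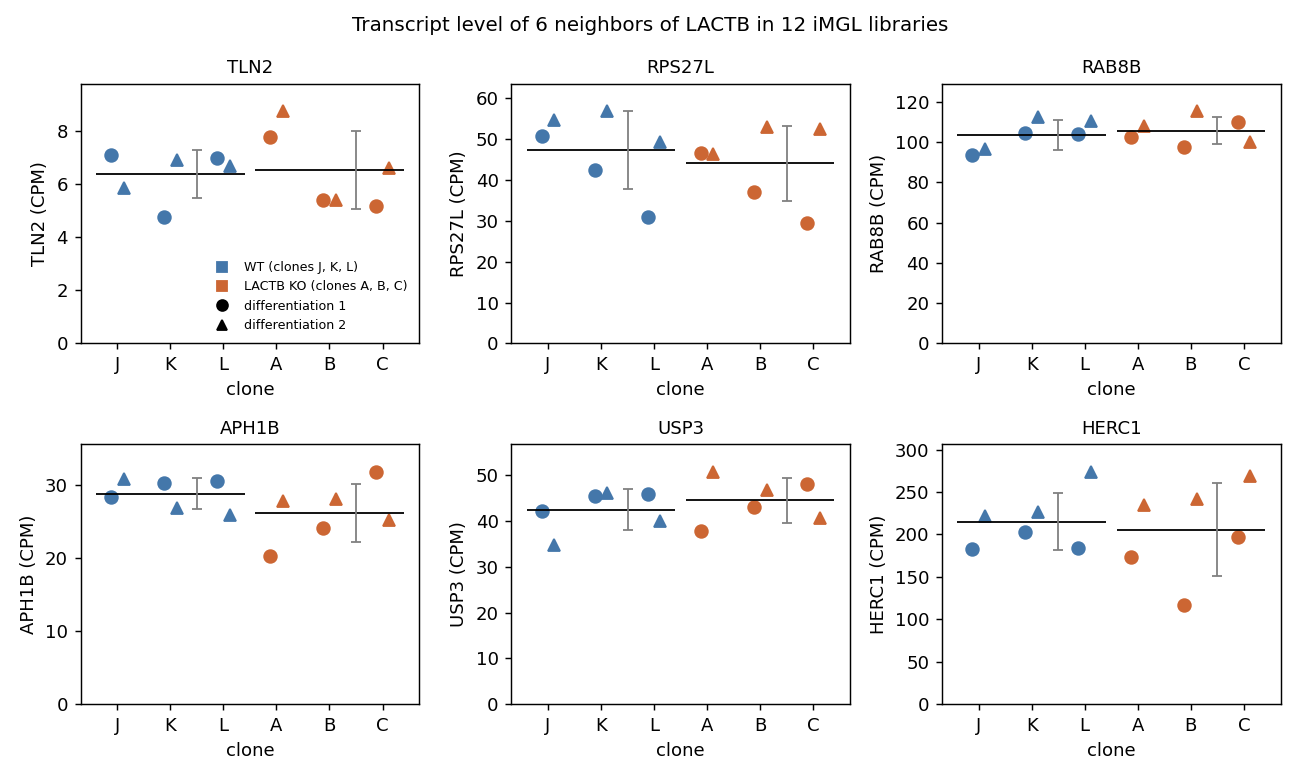
Levels in CPM (y axes, from 0) of TLN2, RPS27L, RAB8B, APH1B, USP3 and HERC1 in the 12 libraries by clone, with circles for differentiation 1, triangles for differentiation 2, lines at the genotype mean and grey bars of 1 SD. In each panel the WT and LACTB KO libraries overlap, and the low HERC1 point of clone B is B1 at 117 CPM.

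The intervals limit how large an unseen change could be. For these 6 neighbors the 95% intervals of the log2 fold change all held 0 and ran no lower than −0.41 (TLN2) and no higher than 0.49 (also TLN2). Each thus lay above −1, the log2 value of 0.5 of the WT level. Clone by clone, the 18 intervals of 6 neighbors in 3 KO clones also all held 0 and lay above −1. Their lowest bound was −0.69 (TLN2 in clone B) and their highest 0.81 (TLN2 in clone A). These 18 intervals measure the spread between the 2 differentiations, so they set no limit against the spread between clones. FBXL22 was too low for this. Its 1 to 9 counts a library gave a log2 fold change of 0.37 with an interval from −0.91 to 1.65.

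**Figure D3:**
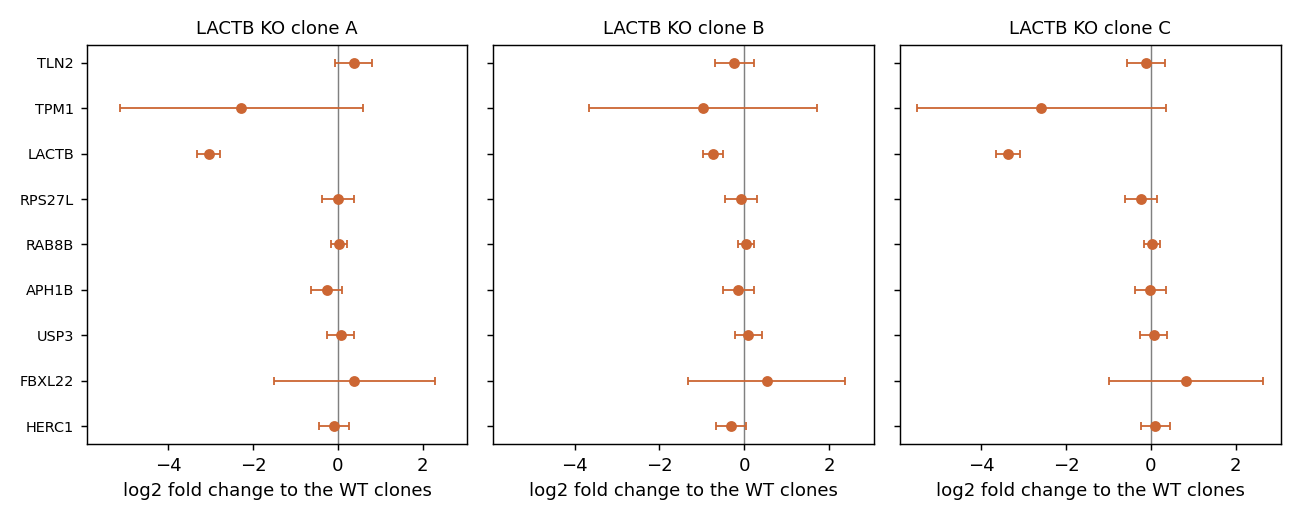
Log2 fold change (x axis) of 9 genes of the locus in each LACTB KO clone against the 3 WT clones, with 95% intervals from edgeR, genes in genome order. LACTB is at −3.05, −0.74 and −3.36 in clones A, B and C. The intervals of TPM1 and FBXL22 are wide and hold 0, as do those of the other 6 genes.

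TPM1 was the one neighbor whose clone levels did not overlap between genotypes. It was at 116 and 23.1 CPM in the libraries of clone J, 8.79 and 181 CPM in K, and 56.0 and 11.3 CPM in L. LACTB KO libraries held 15.7 and 9.45 CPM (A), 14.1 and 45.9 CPM (B), and 10.3 and 9.90 CPM (C). Clone means were 33.7 CPM or higher in WT and 30.0 CPM or lower in LACTB KO, whereas single libraries overlapped, and the lowest of all was K1. The SD over WT libraries (69.1 CPM) exceeded their mean (66.0 CPM). The log2 fold change was −1.92 (SE 0.519, adjusted p = 0.726), with an exact permutation p of 0.1, the smallest possible. Clone levels that did not overlap, as for TPM1 and LACTB, were seen in 10.8% of all genes tested.

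The TPM1 level moved with the stromal genes from library to library. The 5 libraries with the highest summed stromal level (J1 at 2560, K2 at 1680, B2 at 450, L1 at 397 and J2 at 250 CPM) were also the 5 with the highest TPM1. A1 (71.1 CPM) and B1 (64.5 CPM) came next in both. Among the stromal genes, SPARC, FBN1 and TAGLN had the highest mean levels, with log2 fold changes of −3.22, −2.52 and −2.29. None of these had an adjusted p under 0.05. With the stromal level of each clone as a covariate, the log2 fold change of TPM1 was −0.50 and that of LACTB −0.80, neither with an unadjusted p under 0.05 (adjusted p = 1.00 for both). That level, a mean of log2 CPM, was 3.72, 3.29 and 1.48 in WT clones J, K and L. In LACTB KO clones A, B and C it was −0.17, 1.79 and −1.29. It went largely with genotype, and clone B, highest of the KO clones, also kept the most LACTB. Stromal level and genotype therefore cannot be told apart in that fit. The part of stromal cells in the TPM1 values was not tested further, and in bulk libraries fewer cells of a type and less RNA per cell cannot be told apart. TPM1 was at −2.16 in differentiation 1 alone and at −1.73 in differentiation 2 alone, with an unadjusted p under 0.05 in the former.

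**Figure D4:**
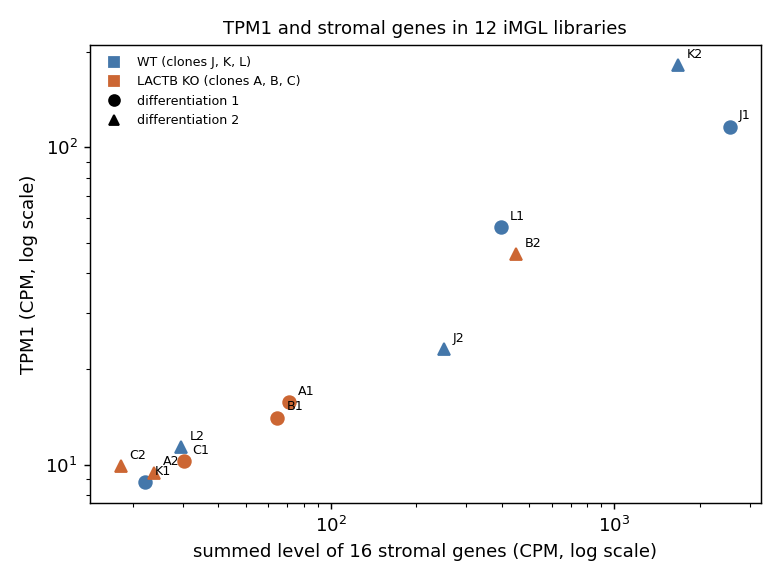
TPM1 level (y axis, CPM, log scale) against the summed level of 16 stromal genes (x axis, CPM, log scale), 1 point per library. J1, K2, B2, L1 and J2 are the 5 highest on both axes, and all 4 libraries of clones A and C lie at 15.7 CPM of TPM1 or below.

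The other tropomyosin genes lie elsewhere in the genome. TPM2, which is abundant in muscle and fibroblasts, was at 24.7 ± 23.5 CPM in WT, against 6.12 ± 3.87 CPM in LACTB KO (SD, n = 6). Its log2 fold change was −2.02 (SE 0.388, adjusted p = 0.726), and it passed in DESeq2 alone (adjusted p = 2.95e-05). TPM3 (0.14, SE 0.113) and TPM4 (−0.03, SE 0.0874), the abundant tropomyosins of these cells, had adjusted p-values of 0.878 and 0.956.

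Within 1 Mb of LACTB the annotation lists 49 other genes, of which 12 passed the filter, 8 of them the neighbors above. The rest were USP3-AS1, DAPK2, CIAO2A and SNX1. Of the 12, 5 had positive and 7 negative log2 fold changes, with a median of −0.05 against 0.01 over all 17577 genes. Unadjusted p was under 0.05 for 2 of the 12, TPM1 and USP3-AS1, against 6.36% of all genes, and adjusted p for 0. USP3-AS1, a noncoding RNA whose exons overlap those of USP3 and FBXL22 on the other strand, reached at most 20 counts and was at 0.604 ± 0.127 CPM in WT, against 0.307 ± 0.163 CPM in LACTB KO (SD, n = 6). Its log2 fold change was −0.96 (SE 0.378, adjusted p = 0.760), and in DESeq2 its unadjusted p was no longer under 0.05. DAPK2, a death-associated kinase, was at −0.13 (SE 0.441). CIAO2A, of cytosolic iron-sulfur assembly, was at −0.04 (SE 0.0966) and SNX1, a sorting nexin, at 0.00 (SE 0.0609).

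**Figure D5:**
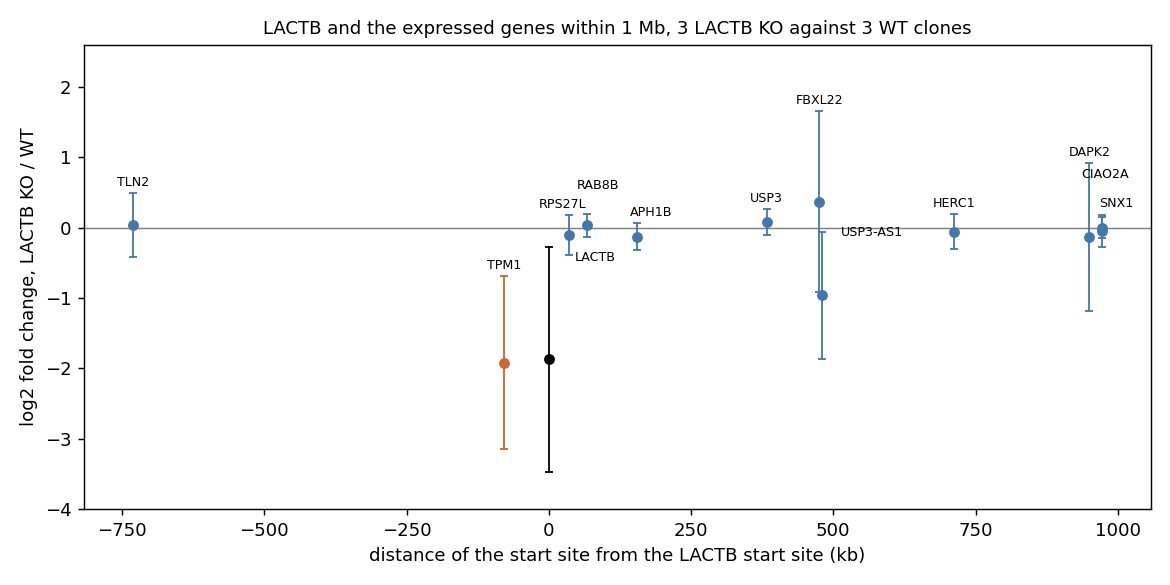
Log2 fold change, LACTB KO over WT (y axis), of LACTB and the 12 genes within 1 Mb that passed the filter, against the distance of their start sites from that of LACTB in kb (x axis), with 95% intervals from edgeR. LACTB (black) is at −1.87, TPM1 (orange) at −1.92 and USP3-AS1 at −0.96, and the intervals of the other genes hold 0.

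The partners and relatives of the neighbors were measured too. For gamma-secretase, the protease that APH1B belongs to, the genes PSEN2, NCSTN, PSENEN, APH1A and APH1B passed the filter. Their log2 fold changes lay between −0.13 and 0.11, with 0 at an unadjusted p under 0.05. PSEN2 was at 28.4 ± 2.497 CPM in WT and at 30.8 ± 4.60 CPM with LACTB KO (SD, n = 6). NCSTN, which receives the substrate, was at 164 ± 21.8 and 150 ± 4.52 CPM, and PSENEN at 32.0 ± 5.97 and 30.7 ± 1.75 CPM. APH1A was at 264 ± 31.3 and 267 ± 23.0 CPM, so APH1B was the lesser of the APH1 subunits in both genotypes.

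RPS27L is one of 25 p53 targets listed. All 25 passed the filter, 20 with negative and 5 with positive log2 fold changes (median −0.11), against 8487 negative and 9090 positive over all genes tested (median 0.01). Unadjusted p was under 0.05 for 2 of the 25, a share near the 6.36% of all genes, and adjusted p for 0. The 2 were DDB2, of DNA repair, at −0.22 (SE 0.0890, adjusted p = 0.760), and GDF15, a stress cytokine, at −1.14 (SE 0.465, adjusted p = 0.761). Unadjusted p stayed under 0.05 for DDB2 only without clone L, and for GDF15 only without K or L, when single clones were left out. Next by p came GADD45A (−0.43), TP53INP1 (−0.20) and CDKN1A (−0.32), all with an adjusted p of 0.878. Without clone J all 5 were nearer to 0, at −0.15 (DDB2), −0.38 (GDF15), −0.10 (GADD45A), −0.12 (TP53INP1) and −0.080 (CDKN1A).

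Of the 13 paralogs listed, 12 passed the filter and only TPM2 had an unadjusted p under 0.05. LACTB2, an RNA-cleaving enzyme of mitochondria named for its beta-lactamase-like fold, was at 14.5 ± 2.37 CPM in WT, against 14.8 ± 1.63 CPM in LACTB KO (log2 fold change 0.04, SE 0.120). RAB8A, at 86.0 ± 8.28 and 94.8 ± 7.70 CPM, had a log2 fold change of 0.14 (adjusted p = 0.878). RPS27 was at 235 and 243 CPM, TLN1 at 1041 and 1075 CPM, USP22 at 244 and 245 CPM, and HERC2 at 161 and 150 CPM, WT first. Of the carbonic anhydrases, CA2 was at 10.1 and 8.53 CPM and CA9 at 0.412 and 0.355 CPM, while CA14, with at most 3 counts, did not pass. RPS27L and RPS27 are similar in sequence, and how the deposited counts split reads shared by paralogs is not given in the sources used here.

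The differentiation, which the labels enter under batch, was compared within clones. RPS27L was at 29.5, 39.7 and 50.7 CPM in differentiation 1 and at 46.2, 52.6 and 56.7 CPM in differentiation 2 (lowest, median and highest of 6). It was higher in differentiation 2 in 5 of 6 clones, the exception being A. HERC1 was at 117, 183 and 203 CPM in differentiation 1 and at 222, 238 and 273 CPM in differentiation 2, higher in 6 of 6 clones and with no overlap. The log2 differences were 0.42 for RPS27L (SE 0.114, adjusted p = 0.347) and 0.49 for HERC1 (SE 0.109, adjusted p = 0.272). The share of all genes with such a rise across clones, or with such a lack of overlap, was not counted. No gene passed the adjusted threshold (0% of all genes) and 9.03% had an unadjusted p under 0.05, as had 2 of the 9 locus genes. LACTB differed by 0.10 (SE 0.0695, adjusted p = 0.732).

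A genotype difference that varies between the differentiations was tested as an interaction. There 0 of 9 had an adjusted or unadjusted p under 0.05, against 0% and 0.996% of all genes. For LACTB the interaction was −0.12 log2 units (SE 0.144, 95% interval −0.46 to 0.22). For TPM1 it was 1.10 with an SE of 1.95.

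The genes whose log2 CPM followed LACTB most closely over the 12 libraries, by Pearson's r as a description, were CYB5R2 (0.91), ZNF132 (0.86), ZFP28 (0.84), KREMEN1 (0.82) and MAP7D2 (0.81). All 5 were low, at 2.08 CPM or less in every library, and none lies on chromosome 15. In the other direction stood LINC01664 (−0.81), GALT (−0.80) and UBQLN4 (−0.78). The 12 points share clones, 2 libraries each. Of the neighbors, TPM1 had r = 0.57 with LACTB, APH1B 0.33 and RPS27L 0.21, and HERC1 (−0.06) and RAB8B (−0.04) were near 0.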

How the data were processed

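Polyadenylated RNA of 12 iMGL libraries (6 per genotype) was analysed, and groups came from the sample labels. The columns of the WT libraries carry a prefix for scrambled controls. The authors trimmed paired 150 bp reads with Cutadapt, and mapped them with STAR to hg38. The deposited values are estimated counts for each gene, not scaled by library size. The counting tool, annotation and strand setting are not given in the sources used here. The submitters' processing notes name R 4.3.3.

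The values were rounded, since 10.8% to 11.5% of them per library had decimals. Of 62703 gene rows, 62639 matched GENCODE version 44, which gave coordinates and exon lengths. edgeR 4.0.16 in R 4.3.3 (TMM, filterByExpr, quasi-likelihood test, Benjamini-Hochberg adjustment over 17577 genes, threshold 0.05) compared sums of each clone, 3 against 3. Contrasts of single clones, differentiations and their interaction were fitted to 12 libraries with clone and differentiation as terms. Intervals of 95% are the estimate plus or minus the t quantile times the SE. Log2 CPM used a prior count of 2. Motifs were searched with Python 3.11.15. Steps were tested on simulated counts. DREAM, the study's mixed model, was not run. DESeq2 1.42.0 and limma 3.58.1 (voom with clone as random effect) were alternatives, with those listed in the closing section.

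The genes of the locus and the gene lists were chosen with earlier results of these data known. Besides the locus genes, named were the other genes within 1 Mb that passed the filter, the paralogs, gamma-secretase subunits, the 5 p53 targets with the smallest p, the 3 stromal genes with the highest level, and the 5 genes most and 3 least like LACTB. Some listed genes are not reported here. Other lists gave no names by such a rule. Of endothelial genes 2 of 5 passed the filter, of neural 3 of 5, of erythroid and megakaryocyte 3 of 7, and of pluripotent and granulocyte or mast cell genes 0, with 1 gene at an unadjusted p under 0.05 in each of the first 3. Differentiation numbers pair the libraries by the labels, as a batch. After genotype means were removed, libraries of the same differentiation and opposite genotype correlated at 0.0323 on average, and those of different ones at −0.0312. The single pairs K with B and L with C correlated at 0.200 to 0.577, which neither the labels nor the tests between clones take into account. The pair J with A correlated at −0.0103 in differentiation 1 and 0.0451 in differentiation 2. No label pairs a WT clone with a KO clone. No 2 libraries agreed within counting noise (chi-square per gene at least 7.77). Counting error is only part of the spread, and p-values between 3 clones measure the spread of these clones.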

Additional observations from a re-analysis of the deposited data

Results flagged for a closer look

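Among the 16 groups of 6 libraries checked, 2 held a library far from the others by Dixon's ratio of the gap to the range, which exceeds its critical value by chance in about 5 of 100 groups. TPM1 in the LACTB KO library B2 was at 45.9 CPM, with a gap of 0.827 of the range, and the summed stromal level of B2 was also the highest of the LACTB KO libraries, at 450 CPM. LACTB in the WT library K2 was at 98.1 CPM, with a gap of 0.645 of the range. The part of the stromal genes in these values was not tested.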

How the results depend on the processing

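LACTB stayed negative in every setting tried, between −0.80 with the stromal covariate and −3.20 without clone B. The stromal covariate went largely with genotype, so the fit with it cannot tell them apart. With the differentiation as replicate block it was −1.88 (adjusted p = 0.629), and the block changed no call of a locus gene. That fit took the 2 libraries of a clone as separate replicates, so its p-values do not measure the spread between clones alone. Leaving out each clone gave −3.20 to −1.47 for LACTB and 0 to 1 locus genes called. Without the filter, clone B against WT called 1 locus gene. Genes within 1 Mb at an unadjusted p under 0.05 numbered 1 in DESeq2, limma voom, differentiation 1 alone and the stromal covariate fit (there HERC1, at −0.32), 0 in differentiation 2 alone, and 1 to 2 without single clones. All genes called at an adjusted p under 0.05 numbered 0, except 171 in DESeq2, 2 without the filter, and 1 each without clones L and B. TPM2 was called in DESeq2 and in no other setting. Fits with the clone pairs J-A, K-B and L-C as block, pairs that no label defines, gave −2.36 for LACTB (adjusted p = 0.236) and −1.42 for TPM1. 

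Small fold changes turned sign. Leaving out each clone, TLN2 ranged from −0.17 to 0.15, RAB8B from −0.025 to 0.070, FBXL22 from −0.025 to 0.89, HERC1 from −0.15 to 0.031, CIAO2A from −0.13 to 0.028, DAPK2 from −0.57 to 0.19, SNX1 from −0.029 to 0.020 and LACTB2 from −0.025 to 0.15. With the stromal covariate TLN2 was at −0.15, RPS27L at 0.17, FBXL22 at −0.32, CIAO2A at 0.19 and SNX1 at −0.030. In differentiation 1 alone TLN2 was at −0.028, USP3 at −0.047, CIAO2A at 0.065 and SNX1 at −0.021. In differentiation 2 alone HERC1 was at 0.041, DAPK2 at 0.11, TP53INP1 at 0.0032 and LACTB2 at −0.15. SNX1 was at −0.0027 with the replicate block, −0.0037 in limma voom and −0.0038 with clone pairs. For differentiation 2 against 1, leaving out each clone gave −0.80 to 0.46 for TPM1, −0.081 to 0.076 for APH1B, −0.12 to 0.015 for USP3 and −0.47 to 0.26 for FBXL22. For the interaction it gave −0.064 to 0.35 for TLN2, −0.72 to 2.64 for TPM1, −0.15 to 0.27 for RPS27L, −0.11 to 0.078 for RAB8B and −0.29 to 1.55 for FBXL22. LACTB between WT clones L and J was at −0.011 with RLE and 0.010 with TMM scaling. The cause was not tested for any of these.

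With 3 clones a genotype, permutation cannot pass 0.05. FBXL22, CA12 and USP3-AS1 were limited by counts, and 1 KO clone with a higher LACTB level widened the interval of its fold change. Mean CPM under RLE scaling moved by less than 1 SD for every locus gene in both genotypes.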
